A study of Rattus norvegicus with 9 samples.

Results

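The complement system was followed through 8 of its genes in the rat brain after a stroke. The genes were C1qa, C1qb, and C1qc (the 3 chains of C1q, the protein that starts the classical pathway), C1s (a protease of the C1 complex), C3 (the component on which all complement pathways converge), C3ar1 and C5ar1 (the receptors of the C3a and C5a fragments), and Serping1 (the C1 inhibitor). They were taken as the probes whose gene name on the array equals 1 of these 8 symbols, and each had 1 probe, so that 8 of 30367 probes (23747 of them tested) were followed. All 8 probes were well above background on 9 of 9 arrays, so no member was lost to the filter on dim probes, and the RefSeq gene table gives the same symbol for the accession of each.

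RNA was profiled in 9 male Sprague Dawley rats on 9 one-color Agilent arrays, with 3 rats in each of 3 groups and 1 array per rat. Sham rats had the operation without occlusion. I/R rats (the ischemia/reperfusion model) had the middle cerebral artery occluded for 2 h and then reperfused. DHI rats had the same occlusion and reperfusion and were given Danhong injection, a preparation of the herbs Danshen and Honghua, through the tail vein until day 14, and the methods state that Sham rats had an equal volume of its solvent. All samples were total RNA of brain at day 14, which the methods describe as the infarcted hemisphere, so that each I/R and DHI sample can hold injured and spared tissue together. A level is given throughout as the log2 of the background-corrected intensity minus the 75th percentile of the same array, so that 1 unit is a doubling. That percentile lay between 1816.3 and 3464.4 in intensity, 75.2% to 78.9% of the probes were well above background, and 0 spots were saturated. All Sham and I/R arrays shared 1 slide and scan, and all DHI arrays were on the other slide, so that DHI and slide cannot be told apart in the comparisons with DHI.

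Complement is a cascade of plasma and tissue proteins. C1q binds antibodies, dying cells, or synapses and, through C1r and C1s, cleaves C4 and C2 into an enzyme that splits C3. The C3b fragment tags its target for uptake, C3a and C5a call and activate phagocytes through their receptors, and C5 to C9 form a pore in membranes. In the brain, C1q is known to come mainly from microglia, whereas C3 and the C1 inhibitor are also made by astrocytes, endothelial cells, and infiltrating cells, and C1q and C3 are known for tagging synapses that microglia remove.

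The 60-base probes are what each level rests on, and 4 of them are shown here with the genes at the entry and the center of the cascade. They are written 5′ to 3′ in lower case, with no part marked. In the files' coordinates (build rn4, minus strand) they lie at chr5:155662578-155662637 for C1qa, chr5:155656638-155656697 for C1qc, and chr4:160736725-160736784 for C1s, and the C3 probe is on an unplaced sequence. No annotation of exons in that build was used here.
C1qa: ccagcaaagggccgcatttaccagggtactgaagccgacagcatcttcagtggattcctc
C1qc: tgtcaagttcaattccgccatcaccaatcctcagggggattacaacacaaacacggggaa
C1s: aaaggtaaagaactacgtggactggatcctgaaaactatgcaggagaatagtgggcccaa
C3: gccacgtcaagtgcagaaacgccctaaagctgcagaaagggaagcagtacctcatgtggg
The probe of C1qb lies at chr5:155647530-155647589, so the 3 C1q probes fall within 15.1 kb. The probes of C3ar1 (chr4:159326458-159326517) and Serping1 (chr3:67968812-67968871) are elsewhere, and the files give no position for C5ar1. The longest run of bases shared by any 2 member probes was 7, so the members were read by different sequences.

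All 8 complement genes rose in the I/R brain. The increase over Sham ranged from 3.61 log2 units in C1qb to 6.15 in C3, with a median of 4.27, beside a median of -0.10 over all tested probes. Each of the 8 passed a Benjamini-Hochberg adjusted p under 0.05 with a fold change (FC) over 1.5 (adjusted p = 0.0396 for each, limma), where 16.4% of all probes were called higher and 15.1% lower. At the thresholds of the study (FC over 1.5 with an unadjusted p under 0.05) the count was also 8 of 8, beside 20.8% of all probes called higher and 22.3% lower. The study took its p from a t-test, whereas these thresholds are applied here to the p of limma unless the t-test is named. With the t-test the count was 8 of 8 as well, beside 9461 of all tested probes. In 8 of 8 the lowest I/R array lay above the highest Sham array, which 26.7% of all probes did. The equal adjusted p-values come from the adjustment, which gives neighbors in the ranking the same value.

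The adjusted p-values lay close to the threshold. They passed with 9 arrays, but 0 of 8 members passed when any Sham array, I/R 1, I/R 2, or DHI 3 was left out. Without scaling between arrays, 0 of 8 passed as well. In each of these settings 8 of 8 passed the study's thresholds. The loss was not particular to the members, since only 0 or 1 of all tested probes passed the adjusted p in these settings, compared with 7471 before. In a fit of the Sham and I/R arrays alone, 8 of 8 members passed it, beside 9758 of all tested probes. Without DHI 1, 8 of 8 passed it, beside 10266.

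C1qa, the A chain of C1q, had levels of 1.77, 1.39, and 1.59 in Sham 1 to 3. Its levels were 6.17, 5.75, and 4.72 in I/R 1 to 3 and 5.17, 1.85, and 2.35 in DHI 1 to 3. The I/R arrays were far above Sham, DHI 1 lay within the I/R range, and DHI 2 and DHI 3 lay just above the highest Sham array. The rise in I/R was 3.97 ± 0.81 (log2, SE), a 15.6-fold higher signal.

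C1qb, the B chain, had levels of 3.08, 2.58, and 2.69 in Sham. It reached 6.81, 6.58, and 5.78 in I/R and stood at 6.14, 3.15, and 3.45 in DHI. The arrays fell in the same places as for C1qa, and the rise in I/R was 3.61 ± 0.72, or 12.2-fold.

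C1qc, the C chain, had levels of -0.94, -1.29, and -1.16 in Sham. It reached 3.56, 3.32, and 2.24 in I/R and stood at 2.72, -0.90, and -0.62 in DHI. DHI 2 was only just above the highest Sham array here. The rise in I/R was 4.17 ± 0.88, or 18.0-fold.

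C1s, the protease that C1q activates together with C1r, was the steadiest member among the Sham rats, with -2.98, -2.95, and -3.05. It reached 1.92, 1.29, and 0.90 in I/R and stood at 1.40, -3.36, and -2.57 in DHI. DHI 2 was below all Sham arrays, and DHI 1 was within I/R. The rise in I/R was 4.37 ± 1.07, or 20.7-fold.

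C3 had levels of -2.01, -1.96, and -0.81 in Sham, where replicate 3 stood above the others. It reached 5.24, 4.65, and 3.79 in I/R and stood at 4.28, -0.42, and 0.78 in DHI. All DHI arrays were above the Sham arrays, with DHI 2 and DHI 3 between the groups and DHI 1 within I/R. The rise in I/R was 6.15 ± 1.08, or 71.0-fold (95% CI 3.65 to 8.65 log2 units), which placed C3 at rank 32 of 23747 probes.

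C3ar1, the receptor of C3a, had levels of -6.19, -6.10, and -6.02 in Sham. It reached -1.90, -1.99, and -2.86 in I/R and stood at -2.54, -6.02, and -5.78 in DHI. The value of DHI 2 was that of the highest Sham array. The rise in I/R was 3.85 ± 0.83, or 14.5-fold. Its intensities were low, at 35.3 to 40.7 in Sham and 27.9 on DHI 2, so the size depended on the background correction. With normexp correction (offset 50) the rise was 2.61, and the difference of DHI from I/R was -1.48 in place of -2.53.

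C5ar1, the receptor of C5a on phagocytes, had levels of -4.66, -5.01, and -5.29 in Sham. It reached 0.57, 0.10, and -1.59 in I/R, the widest spread within I/R among the members, and stood at -0.96, -4.92, and -4.49 in DHI. DHI 2 lay within the Sham range and DHI 3 just above it. The rise in I/R was 4.68 ± 1.02, or 25.6-fold. Its intensities were also low, at 67.3 to 102 in Sham and 59.8 on DHI 2. With normexp correction the rise was 3.9, and the difference of DHI from I/R was -2.5 in place of -3.15. That was smaller in size than the -2.98 of C3 with the same correction.

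Serping1, the inhibitor that removes C1r and C1s from the C1 complex, had levels of 0.78, 0.00, and 0.01 in Sham. It reached 5.04, 4.79, and 4.08 in I/R and stood at 4.55, 0.06, and 1.01 in DHI. DHI 2 lay within the Sham range, DHI 3 just above it, and DHI 1 within I/R. The rise in I/R was 4.38 ± 1.01, or 20.8-fold, so that the inhibitor rose beside the protease it inhibits.

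**Figure D1:**
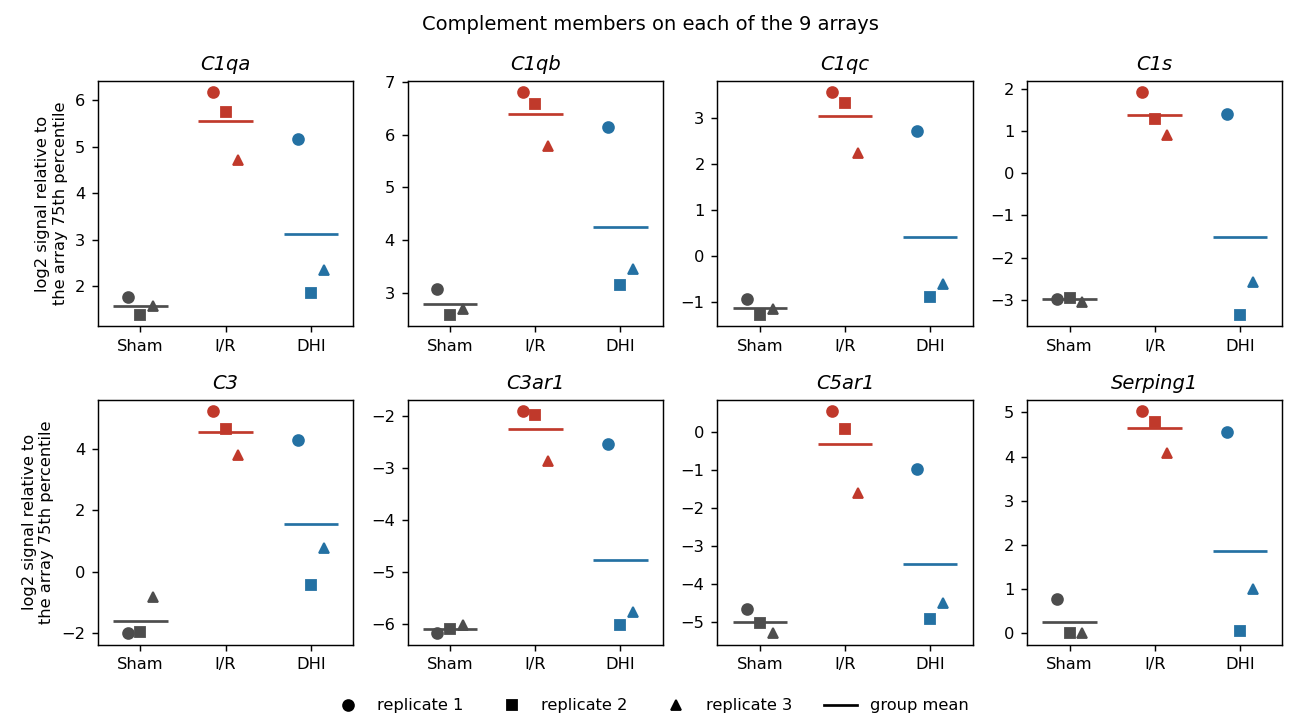
Level of each member on each array (y axis, log2, with the 75th percentile of that array as 0), by group, with replicate numbers as symbols and the group mean as a line. In every panel the 3 I/R arrays lie above the 3 Sham arrays, DHI 1 lies within the I/R range, and DHI 2 and DHI 3 lie near Sham, except for C3, where they lie between the groups at -0.42 and 0.78.

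The next comparison asked how far these genes stood from the I/R level in rats given Danhong injection. With the p of limma, all 8 were lower in DHI than in I/R at the study's thresholds (10.5% of all probes were called lower and 11.5% higher). With a t-test, which the study used, 0 of 8 were called, beside 469 of all tested probes. The differences ranged from -2.15 in C1qb to -3.15 in C5ar1, with a median of -2.70, beside a median of 0.10 over all tested probes. The unadjusted p-values of limma ranged from 0.0147 to 0.0274. With the adjusted p, 0 of 8 passed (adjusted p = 0.196 for each, limma), and 0.00421% of all probes were called lower by it.

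The size was 5.36-fold for C1qa, 4.42-fold for C1qb, 6.23-fold for C1qc, and 7.37-fold for C1s. It was 8.04-fold for C3, 5.79-fold for C3ar1, 8.87-fold for C5ar1, and 6.80-fold for Serping1. The 95% CI was wide for all, from -5.51 to -0.51 log2 units in C3 and from -3.82 to -0.47 in C1qb. These intervals rest on 1 spread over the 3 groups, although in C1s, for example, the SD was 0.05 in Sham and 2.55 in DHI. A t-test of the 2 groups alone gave unadjusted p-values of 0.0903 (C5ar1) to 0.128 (C1s). A limma fit of the 2 groups alone called 6 of 8 at the study's thresholds, beside 2149 of all tested probes. The DHI arrays overlapped the I/R arrays in 8 of 8 members, whereas 4.03% of all probes were lower in DHI without overlap.

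The group mean of DHI did not describe any DHI rat, since the 3 arrays fell far apart. On a scale where the Sham mean is 0 and the I/R mean is 1, DHI 1 stood at 0.86 in C5ar1 to 1.01 in C1s. DHI 2 stood at -0.08 in C1s to 0.19 in C3, and DHI 3 at 0.08 in C3ar1 to 0.39 in C3. DHI 1 was the highest and DHI 2 the lowest DHI array for all 8 members, and I/R 1 was the highest I/R array for all 8. The members come from the same arrays, so these are not 8 independent observations of the rats. For C3 the gap between DHI 1 and the mean of the other two was 4.10 log2 units, and for C1s it was 4.37. The range within DHI was 2.99 to 4.77 log2 units over the members, compared with 0.95 to 2.16 within I/R and 0.10 to 1.21 within Sham.

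**Figure D2:**
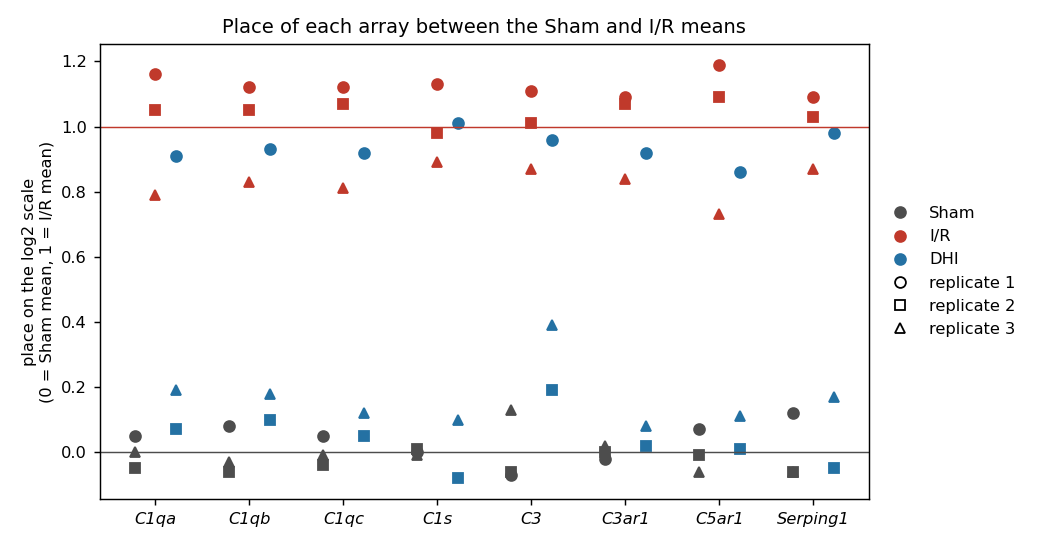
Place of each array on the log2 scale (y axis, 0 is the Sham mean and 1 the I/R mean of that gene) for the 8 members, with groups as colors and replicates as symbols. DHI 1 sits between 0.86 and 1.01, and DHI 2 and DHI 3 sit between -0.08 and 0.39, with C3 the highest member on both.

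The count in DHI versus I/R therefore depended on single arrays. Without DHI 1, the differences were -3.09 (C1qb) to -4.40 (C5ar1) and 8 of 8 also passed the adjusted p. So did 9527 of all tested probes, compared with 1 when all arrays were kept. Without DHI 2 the differences were -1.60 (C1qb) to -2.42 (C5ar1). There 0 of 8 passed the study's thresholds, beside 939 of all tested probes, compared with 5211 when all arrays were kept. Without DHI 3 the count was also 0 of 8, beside 1127. Without I/R 2 it was 5, beside 1659, and without I/R 1 only C3ar1 passed, beside 1381. With the methods' t-test 0 of 8 passed, beside 469. With array weights 8 of 8 passed the adjusted p, beside 11817 of all tested probes. The direction of the members was lower in all of these settings.

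Against Sham, the mean of DHI was higher for all 8 members, by 1.32 (C3ar1) to 3.14 (C3), with a median of 1.53, beside 0.02 over all tested probes. At the study's thresholds only C3 was called, beside 2.52% of all probes called higher and 1.06% lower. Its difference was 3.14 ± 1.08, or 8.83-fold (unadjusted p = 0.0199, adjusted p = 0.709, limma). The other 7 had unadjusted p-values of 0.0786 or more and 95% CIs that included 0, for example -0.21 to 3.13 in C1qb and -0.98 to 3.95 in C1s. The DHI arrays lay above all Sham arrays for C1qa, C1qb, C1qc, and C3, beside 10.3% of all probes. Without DHI 1, the differences from Sham were 0.03 in C1s, 0.20 in C3ar1, 0.52 in C1qa, and 1.78 in C3, and C3 was still called. C3 was not called without Sham 1, without Sham 2, or with the methods' t-test. Without DHI 2 the number of members called was 6, beside 2519 of all tested probes, compared with 849 with 9 arrays.

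**Figure D3:**
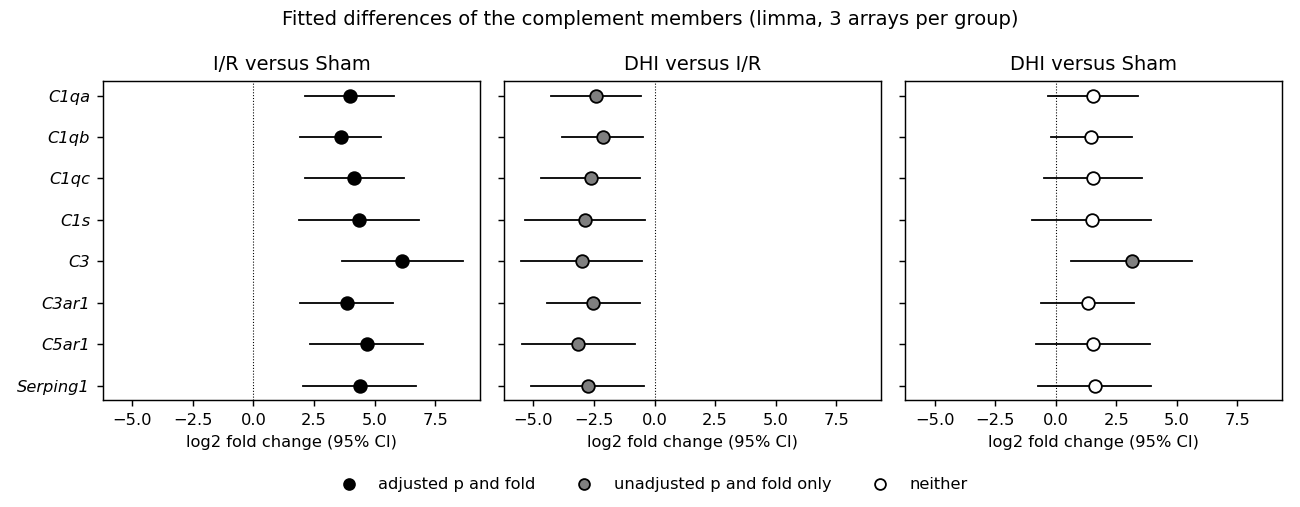
Fitted log2 fold change of each member with its 95% CI (x axis) in the 3 comparisons, with the fill of the point showing which thresholds it passed. All 8 intervals lie above 0 in I/R versus Sham and below 0 in DHI versus I/R, and in DHI versus Sham only that of C3, from 0.64 to 5.64, does not include 0. The intervals use 1 spread estimated over the 3 groups, also where Sham is not compared.

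The members followed each other closely across the 9 arrays, except C3. The likeness of a pair was measured as the root mean square difference of their log2 profiles, each centered on its Sham mean. C1qa and C1qc were the nearest pair (0.178), followed by C1qa and C3ar1 (0.242) and by C1qa and C1qb (0.254). C1s and Serping1 differed by 0.260. C3 was the farthest from all the others, from 1.373 against C5ar1 to 1.850 against C1qb. Its larger rise in I/R and its higher place on DHI 2 and DHI 3 both enter that distance.

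Of all the tested probes with another symbol, those nearest to the mean of C1qa, C1qb, and C1qc were Tnfrsf1b, a TNF receptor (0.112), Grn, progranulin (0.114), and Lcp1, the leukocyte actin-bundling protein plastin (0.115), where the median distance over all probes was 2.665. C1s and Serping1 had the same nearest gene, Cp, which encodes ceruloplasmin (0.179 and 0.165), and Bcl3 was among the 3 nearest for both. The gene nearest to C3ar1 was Mfap4 (0.131), followed by C1r (0.162), the partner protease of C1s. The nearest to C5ar1 was Ctse, cathepsin E (0.153), and to C3 the class I histocompatibility gene RT1-CE5 (0.412), followed by Cd86, a costimulatory molecule (0.465). C3 thus had no probe as near to it as the other members had. These distances are descriptions over 9 arrays that share the large difference between Sham and I/R.

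The rest of the complement system was read from a list of 47 other names, of which 39 are on the array and 31 were tested. In I/R versus Sham, 23 of the 31 rose, 1 fell, and 7 were not called at the study's thresholds, with a median of 1.78 log2 units (likewise 1.78 with the 5 genes below background in a group at their bound). With the adjusted p, 22 rose and 1 fell. In DHI versus I/R, 14 were lower, 1 was higher, and 16 were not called, with a median of -1.18 and 0 passing the adjusted p. In DHI versus Sham, 3 were higher (C5, Gpr77, and Cfi), 1 was lower (C4bpa), and 27 were not called, with 0 passing the adjusted p. Gpr77 was well above background on 1 DHI array and 0 Sham arrays, and C4bpa on 1 DHI array.

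**Figure D4:**
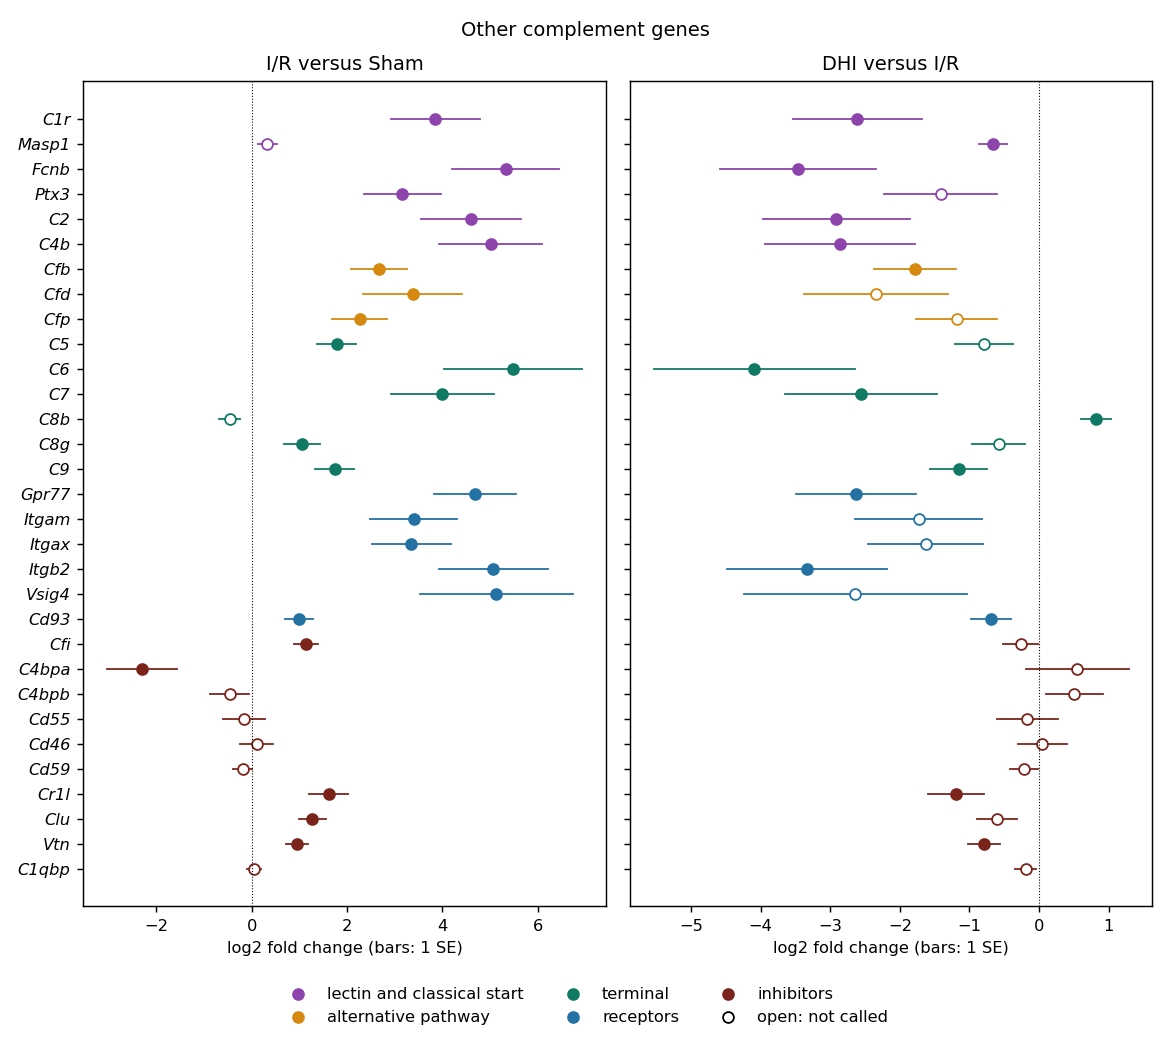
Log2 fold change with 1 SE (x axis) of the 31 other complement genes, colored by role, in I/R versus Sham (left) and DHI versus I/R (right), where filled points passed the study's thresholds. The early components, alternative pathway, and receptors lie to the right of 0 in I/R versus Sham, and the inhibitors are spread on both sides.

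Among the genes that start the classical and lectin pathways, 5 of 6 rose in I/R. C4b, whose protein is cleaved by C1s, had levels of 0.98, 0.29, and 0.05 in Sham, 5.99, 5.50, and 4.84 in I/R, and 5.40, 0.54, and 1.80 in DHI. Its rise was 5.01 ± 1.08. C2, the other substrate of C1s, had -1.98, -2.33, and -2.19 in Sham, 2.88, 2.72, and 1.68 in I/R, and 2.34, -2.28, and -1.52 in DHI. The arrays took the same places as for the members, and the rise of C2 was 4.59 ± 1.05. C1r rose by 3.85, Fcnb (ficolin B) by 5.33, and Ptx3 (pentraxin 3) by 3.16. Masp1, a protease of the lectin pathway, was not called (0.32 ± 0.20), but its 4 probes disagreed, with differences of 0.32, 4.16, 2.66, and -0.22. In DHI versus I/R, 5 of these 6 were lower, among them C4b by -2.86 and C2 by -2.91, and Ptx3 (-1.41) was not called. Masp1 was counted as lower by its brightest probe (-0.66), and its other probes differed by -2.61, -2.55, and 0.44.

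All 3 genes of the alternative pathway rose in I/R. Cfb, factor B, which joins C3b in the C3 convertase, rose by 2.67 ± 0.59. Cfd, factor D, the protease that cleaves factor B, rose by 3.38 ± 1.04, and Cfp, properdin, which stabilizes the convertase, by 2.26 ± 0.58. In DHI versus I/R only Cfb was called lower (-1.78).

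Of the terminal components, 5 of 6 rose in I/R. C6 rose by 5.48 ± 1.45 and C7 by 4.0 ± 1.09, whereas C5 rose by 1.78 ± 0.41 and C8g by 1.06 ± 0.38. C9, the pore subunit, did not stand well above background in Sham, and its I/R level was at least 3.35-fold higher (adjusted p = 0.0396, limma). C8b was not called in I/R (-0.46 ± 0.22) and its DHI level exceeded the I/R level (0.82 ± 0.22). C8b was dim, with levels of -7.16 to -5.94 over the arrays. C6, C7, and C9 were lower in DHI than in I/R.

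All 6 tested receptors rose in I/R. Itgb2, the beta chain of the iC3b receptors on phagocytes, rose by 5.07 ± 1.15, and its partner Itgam by 3.40 ± 0.91 on the brighter of its probes and by 5.05 on the other. Gpr77, the alternative C5a receptor, was not well above background in Sham, and it was at least 25.1-fold higher in I/R (adjusted p = 0.0396, limma). Vsig4, a C3b receptor of macrophages, was at least 15.3-fold higher (adjusted p = 0.0448, limma) and Itgax at least 4.71-fold higher (adjusted p = 0.0396, limma), likewise against Sham arrays that were not well above background. Cd93 rose by 0.99 ± 0.29. Gpr77, Itgb2, and Cd93 were lower in DHI than in I/R.

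The inhibitors were divided. Of 10 tested, 4 rose in I/R, 1 fell, and 5 were not called, with a median of 0.08. Cr1l (the rodent membrane inhibitor Crry) rose by 1.61, Clu (clusterin) by 1.27, Cfi (factor I) by 1.14, and Vtn (vitronectin) by 0.94. C4bpa, the alpha chain of C4b-binding protein, did not stand well above background in I/R, where it was at least 3.77-fold lower than in Sham (adjusted p = 0.0473, limma). The membrane inhibitors Cd55 (-0.17), Cd46 (0.10), and Cd59 (-0.19) were not called, nor were C4bpb (-0.46) and C1qbp (0.05). A second, dimmer probe of Cd55 differed by 0.65 in I/R versus Sham and by -0.75 in DHI versus I/R.

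The counts of the list in DHI versus I/R moved with single arrays as those of the members and of all tested probes did. Without DHI 1, 23 of the 31 were lower, beside 10737 of all tested probes called in either direction. With all arrays kept these counts were 14 and 5211. Without DHI 2 the count was 1, beside 939, and without DHI 3 it was 3, beside 1127. Without I/R 1 it was 2, beside 1381, and without I/R 2 it was 5, beside 1659. Without scaling it was 22, beside 7436, and with the methods' t-test it was 2, beside 469. In DHI versus Sham, the count of higher genes was 12 without DHI 2, beside 2519 of all tested probes. It was 1 without Sham 2, beside 344, and 1 without I/R 2, beside 704. It ranged from 0 without scaling, beside 1688, to 10 with array weights, beside 3484. With all arrays kept these counts were 3 and 849.

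Markers of cell types moved on the same arrays. Of 10 markers of microglia and macrophages, 9 rose in I/R (8 with the adjusted p), with a median of 3.50 log2 units, and Cx3cr1 (-1.0) was not called. The log2 of their summed signal was 4.27 to 4.48 in Sham, 6.79 to 8.18 in I/R, and 7.40, 4.63, and 4.92 in DHI 1 to 3. Fibroblast and meningeal markers rose in 5 of 5, with sums of 2.51 to 3.25 in Sham, 5.90 to 6.59 in I/R, and 6.39, 2.52, and 2.72 in DHI 1 to 3. Of 6 astrocyte markers 4 rose (Gfap by 3.63) and Slc1a2 fell. Neuron markers fell in 6 of 6, with sums of 5.44 to 5.80 in Sham, 1.69 to 4.35 in I/R, and 3.63, 5.45, and 5.15 in DHI 1 to 3. The arrays were thus ordered in these sums much as in the complement genes, with DHI 1 beside I/R and DHI 2 and DHI 3 beside Sham. In bulk tissue, more cells of a type and more RNA per cell cannot be told apart, and the part of cell composition in the complement differences was not tested.

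Markers of other cell types were read in the same way. The sum of 3 hepatocyte markers, which include albumin, was -2.08 to -1.40 in Sham and -2.69 to -2.33 in I/R. Of these markers Apoa2 rose in I/R by 1.08 (an adjusted call), and Alb and Serpina1 were not called. In DHI 1 to 3 the sum was -3.69, -0.64, and -0.81, so DHI 1 stood below the other arrays in this sum. Of the 3 neutrophil markers tested, S100a8 (2.01) and S100a9 (1.42) rose in I/R, and Mpo (-0.31) was not called. In DHI versus I/R, Mpo was called higher (0.94), and S100a8 and S100a9 were not called. Mpo was dim, with levels of -7.63 to -6.22 over the arrays, and was well above background on only 2 I/R arrays. Elane, which was not tested, did not stand well above background anywhere. T cell markers rose in 2 of 4, endothelial markers in 2 of 5, and oligodendrocyte markers in 0 of 5. Choroid plexus markers rose in 2 of 3 in I/R (Folr1 by 4.51 and Aqp1 by 3.68, adjusted calls for both), and Ttr was not called. Their sum was -1.36 to -0.05 in Sham, 0.52, 1.57, and 6.55 in I/R 1 to 3, and 7.09, 2.90, and 6.21 in DHI 1 to 3, so that every I/R and DHI array lay above Sham. The red blood cell sum was 1.19 to 1.74 in I/R, 1.90 to 4.89 in Sham, and 2.87 to 5.28 in DHI. The parts of these cells in the complement levels were not tested.

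Set against the summed microglia and macrophage markers of the same array, the members still differed in how far they rose. The level of C3 minus that sum exceeded its Sham mean by 2.93 log2 units in I/R, and that of C5ar1 did so by 1.46. For C1qb the difference was 0.38, for C3ar1 0.63, and for C1qa 0.74. C1qb, C3ar1, and C1qa thus rose by nearest to the rise of the marker sum, and C3 by the most beyond it. Serping1 (1.16), C1s (1.15), and C1qc (0.95) lay between. In DHI versus I/R the same differences were -0.16 (C1qb) to -1.17 (C5ar1). Set against the fibroblast and meningeal sum, C1qb stood at -0.16, -0.31, and 0.18 in Sham and at 0.21, 0.19, and -0.12 in I/R. Its nearness was thus not particular to the microglia and macrophage sum. C3 stood at -5.26, -4.85, and -3.32 in Sham and at -1.36, -1.75, and -2.12 in I/R against the fibroblast sum. The microglia and macrophage sum is dominated by its brightest markers, and all these values are descriptions with no test.

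**Figure D5:**
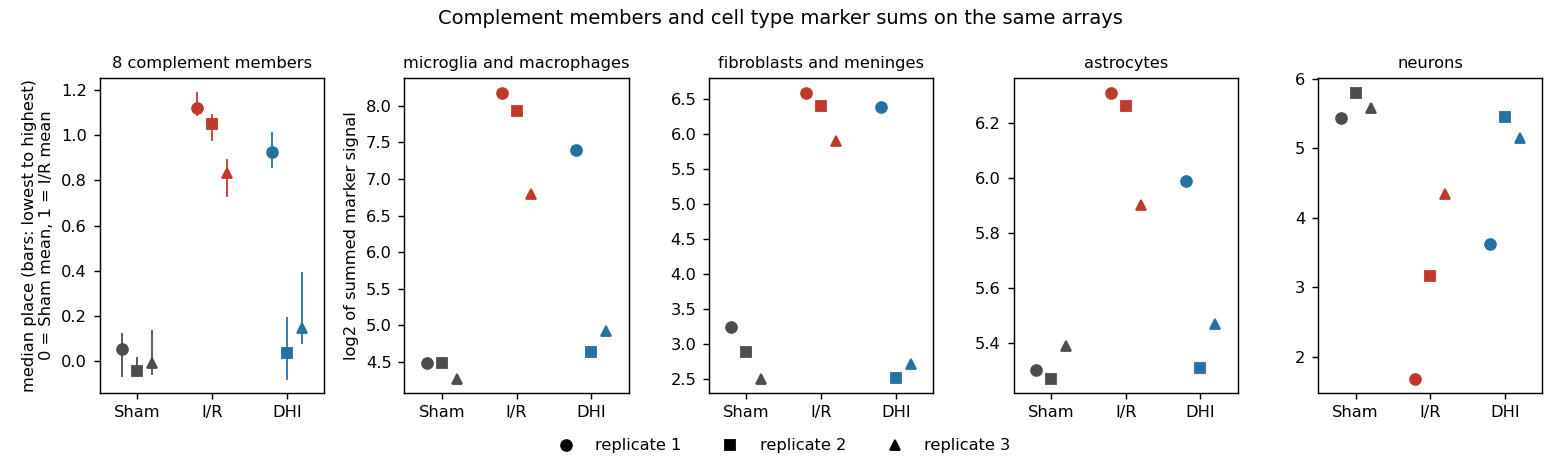
Left panel, median place of the 8 members on each array (bars from the lowest to the highest member, 0 is the Sham mean and 1 the I/R mean). Other panels, log2 of the summed signal of cell type markers on the same arrays, each with its own y axis. DHI 1 lies near I/R for the members and for the microglia and macrophage sum (7.40) and the fibroblast sum (6.39), and DHI 2 and DHI 3 lie near Sham.

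The stretches before the start sites of members were searched because these genes moved together. RefSeq promoters (build GRCr8) were at hand for 4 of the 8, C1qa, C1qb, C3, and C3ar1, and the 250 bases before the start were searched on both strands for 5 motifs. The core GAGGAA, which the myeloid factor PU.1 binds, occurs in 23.2% of the 27457 RefSeq promoters of that length. The interferon response motif GAAANNGAA occurs in 8.05% and the STAT motif TTCNNNGAA in 7.57%. The C/EBP motif TTGCNNAA occurs in 9.29% and the core promoter motif TATAAA in 13.2%, and overlap between motifs was allowed. The stretches that hold a match are shown on the gene's strand, with the match in capitals.
C1qa (chr5:154419995-154420043, minus strand): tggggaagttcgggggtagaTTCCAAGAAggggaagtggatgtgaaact
C1qb (chr5:154407892-154408077, minus strand): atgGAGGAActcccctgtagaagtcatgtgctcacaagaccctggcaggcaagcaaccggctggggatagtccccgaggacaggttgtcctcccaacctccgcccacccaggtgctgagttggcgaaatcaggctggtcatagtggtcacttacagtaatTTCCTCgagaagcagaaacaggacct
C3 (chr9:2201416-2201463, minus strand): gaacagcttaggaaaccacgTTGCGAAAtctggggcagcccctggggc
The match in C1qa is to the STAT motif, 90 to 82 bases before the start. C1qb holds the PU.1 core on each strand, 247 to 242 and 90 to 85 bases before the start. C3 holds the C/EBP motif 104 to 97 bases before the start, and C3ar1 held none of the 5 in this window. No motif was shared by all of these promoters, and a match of letters is not a measured binding site.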

How the data were processed

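Spot intensities on a linear scale were deposited by the authors as the output of Agilent Feature Extraction (version 10.7.1.1 in the submitters' processing notes), corrected for background and not scaled between arrays. A series table of log2 values, deposited by the authors with the same distribution on every array, served as an alternative. From the intensities, control and outlier spots were left out, the log2 values of the spots of a probe were averaged, and the 75th percentile of the array was subtracted. The 34 probe values with outlier spots only were left missing. The test took the 23747 of 30367 probes for which some group had all 3 of its arrays well above background. One model over 9 arrays (R 4.3.3, limma 3.58.1, lmFit and eBayes, 6 residual degrees of freedom, Benjamini-Hochberg adjustment) gave the 3 comparisons, after the steps were tested on simulated data. The number of arrays limits the precision.

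The methods call the replicates biological. No value column was left unused (0 columns). Where a gene had several probes, the one with the highest mean signal was used. "At least" folds set a dim probe at the lowest signal well above background of its array where its own was lower. The genes named are the 8 members, up to 30 of the other complement genes by role, and the 3 nearest genes of a profile. The members, the lists, the motifs, and the tests were chosen with earlier results of these data known. The alternatives were other scalings, background correction, filters, weights, and tests, the replicate block, and leaving out each array. A gene of the complement list is not reported here and is left out of its counts. Sequences are those of the array files and of RefSeq (GRCr8).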

Additional observations from a re-analysis of the deposited data

How the results depend on the processing

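No direction of a member turned in any comparison under any alternative run. In I/R versus Sham, all 168 single-gene results kept their call at the study's thresholds. In DHI versus I/R, 36 lost it and 132 kept it, and in DHI versus Sham, 12 gained it, 3 lost it, and 153 kept it. The number of members with an adjusted call in I/R versus Sham went from 8 to 0 without scaling. It was either 0 or 8 when each array was left out in turn. In DHI versus I/R, the count at the study's thresholds went from 8 to 0 with the methods' t-test. It lay between 0 and 8 when each array was left out in turn. The adjusted count went from 0 to 8 with array weights and without DHI 1, and it stayed 0 when any other array was left out. Of all tested probes, 11817 passed the adjusted p with array weights and 9527 without DHI 1. In DHI versus Sham, the count at the study's thresholds was 1, and it was 2 with normexp background correction, 5 with array weights, 3 with the replicate block, 0 with the methods' t-test, and 0 to 6 when leaving out each array, and the adjusted count of 0 was 1 with array weights. The cause was not tested. At an unadjusted p under 0.05 with FC over 1.5, the limma counts beside the adjusted counts of 0 were 8 and 1. Without scaling the median of all tested probes was -0.36 in DHI versus I/R and 0.10 in I/R versus Sham, against 0.10 and -0.10, and with normexp it was 0.23 in DHI versus I/R.

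With the replicate number as a block, 8 of 8 members passed both thresholds in I/R versus Sham. For DHI versus I/R, 8 passed the study's thresholds and 0 the adjusted p. The labels share only a number across groups. The correlations of same-numbered arrays ranged from -0.34 to 0.48, so the numbers were not taken to pair the rats. The settings of the other complement genes, and the 75th percentile over probes in place of spots, were added after the data were seen. Members had 1 probe each, so the choice of probe changed none of their counts. With 3 arrays per group and DHI on its own slide, a difference in signal between slides could not be separated from treatment.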
